A study of Mus musculus with 6 samples.

Results

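Lhx2 is a LIM-homeodomain transcription factor, and the genes described here are Lhx2 and 9 genes whose products are related to it or work beside it in LIM-domain protein complexes. They are the LIM-homeodomain genes Lhx2, Lhx5 and Lhx9, the LIM-binding cofactor genes Ldb1 and Ldb2, the single-stranded-DNA-binding-protein cofactor genes Ssbp2 and Ssbp3, and the LIM-only genes Lmo1, Lmo3 and Lmo4. All non-control array probes that carry one of these names were taken, which gave 16 probes of 55681. After gene names were updated, the arrays stood for 35513 genes in all. Of the 10 genes, 6 had 1 probe, 2 had 2 probes and 2 had 3 probes.

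RNA came from the primary somatosensory cortex (S1, the cortical area for touch) of C57BL/6 mice at postnatal day 7. The 3 control samples carried floxed Lhx2 alleles (Lhx2f/f) without Cre; their sample titles call them WT. The 3 conditional knockout (cKO) samples carried the same floxed alleles with Nex-Cre, a Cre recombinase expressed from the Neurod6 (Nex) locus in young excitatory neurons of the cortex. Each sample was hybridised to 1 single-colour array. Nex-Cre is not known to act in microglia or in most interneurons and glia of the cortex, so whole-tissue RNA also holds transcripts of cells that keep the floxed alleles intact. No label states if each sample is a separate animal, and p-values therefore cover only the spread among these samples.

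LIM-homeodomain proteins bind DNA through their homeodomain and recruit cofactors through 2 LIM domains. Ldb proteins bind LIM domains and dimerize, and in this way bridge factors on separate DNA elements; Ssbp proteins bind Ldb proteins and protect them from degradation. LIM-only proteins have LIM domains and no homeodomain, and can occupy Ldb proteins in place of a LIM-homeodomain factor. In the developing cortex Lhx2 is known for its part in specifying cortical tissue and, later, neuron identity.

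The array reads each gene through 60-base probes, and the signal reports only the stretch of transcript a probe matches. The first 30 bases of the probes that carry the differences described below are shown, so that the measured stretch of each transcript can be identified. Their positions on mm9 are chr2:38224933-38224992 on the plus strand for Lhx2, chr5:44863390-44863449 on the minus strand for Ldb2, and chr6:138313467-138313526 and chr6:138369742-138369801, both on the minus strand, for Lmo3. Whether these positions are exonic, intronic or in a UTR was not analysed here.
Lhx2 A_51_P257419: agagcttccgtattttcaaagactgccacg
Ldb2 A_55_P2013601: catcaagcagctgtattttatgtatgcttt
Lmo3 A_51_P118188: ttgtgtaaatgttgtccagatttctcccta
Lmo3 A_55_P2049811: gaagctgcagcgactcaggcacgcctcagt

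A second set is shown because 2 of the 3 Ssbp2 probes are nearly the same sequence yet are listed on different chromosomes. The probe A_55_P2155041 is listed at chr13:91840709-91840768 on the plus strand of mm9 and A_55_P2089080 at chr4:53676631-53676690 on the plus strand. Aligned over 56 columns, the probes had 53 identical bases, 2 substitutions and 1 gap. The capitals mark the bases at which the shown stretches differ.
Ssbp2 A_55_P2155041: ctgcccttccccaactATtttgtgctgtgt
Ssbp2 A_55_P2089080: ctgcccttccccaactGtttgtgctgtgta
On chromosome 4 the nearest probes of other genes on either side belong to Fsd1l, at -12.2 kb and 37.5 kb from the Ssbp2 probe. Among all array probes, no other pair that includes a probe of the 10 genes shared a run of 20 bases. The signal of these 2 Ssbp2 probes cannot be assigned to one locus, and they are not separate measurements of the gene.

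Between 86.7% and 91.1% of the non-control spots of an array were well above background, and 0 were saturated. Values below are log2 processed signals minus the array's 75th percentile, so 0 is the level of a probe at that percentile and 1 unit is a doubling. The 75th percentile lay between 822 and 975 intensity units. All 16 probes were well above background on all 6 arrays, from 16.8 intensity units for the dimmest value of an Lhx9 probe to 28096 for the brightest value of the Lhx2 probe. The 6 arrays shared 1 slide. The mean of 3 Y-linked probes was -0.58 and -0.55 on control arrays 1 and 3 and between -7.56 and -6.84 on the other 4 arrays, so Y-linked signal occurred in the control group only. With 6 arrays, their number limits how precise each value is.

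Of the 10 genes, 1 passed an adjusted p of 0.05 (limma, Benjamini-Hochberg over 32696 tested genes): Ldb2. The background was 3 genes called of 32696, or 0.00918%. The groups did not overlap for 7 of the 10 genes, 5 higher and 2 lower on the arrays labelled cKO, whereas they did not overlap for 13.2% of all tested genes (6.98% higher, 6.19% lower). At an unadjusted p under 0.05 there were 7 of 10, against 7.49% of all tested genes. The median log2 difference of the 10 genes was 0.19 and that of all genes 0.02; the median absolute difference was 0.35 for the 10 genes and 0.10 for all genes. The genes were chosen with results of these arrays known, so these counts describe them and test nothing.

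**Figure D1:**
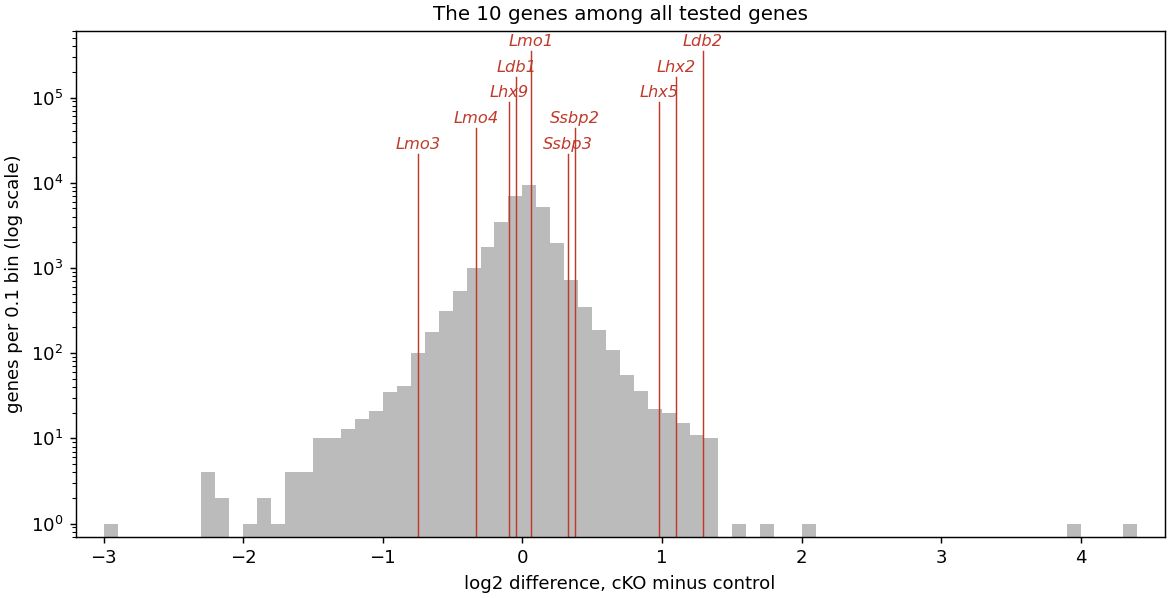
Histogram of the log2 difference (arrays labelled cKO minus control) of 32696 tested genes in bins of 0.1, with the number of genes on a log scale and a red line for each of the 10 genes. Ldb2 (1.29), Lhx2 (1.10) and Lhx5 (0.98) lie in the thin upper tail, Lmo3 (-0.75) in the lower tail, and Lhx9, Ldb1 and Lmo1 lie within the central mass.

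The LIM-homeodomain genes come first. The Lhx2 probe read 4.55, 4.68 and 4.89 on arrays labelled cKO 1, 2 and 3 and 3.62, 3.63 and 3.55 on control arrays 1, 2 and 3. Every array labelled cKO was above every control array, and the controls lay close together while the other group spread more widely (4.71 ± 0.17 against 3.60 ± 0.04, SD, n = 3 each). The difference was 1.10 on the log2 scale (SE 0.11, 95% interval 0.84 to 1.37), a 2.15-fold higher signal, with a limma adjusted p of 0.067, the 12th smallest p of all tested genes.

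A higher Lhx2 signal goes against what the label knockout would give if the probe lay in the deleted part. The labels do not give the stretch of the gene that Cre removes. A probe outside that stretch reads only the rest of the transcript and cannot show if the stretch was removed. The groups are therefore called by their labels throughout, and each direction rests on those labels. Only 1 probe reads Lhx2 on this array, so no second stretch of its transcript can be set beside it.

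Genes next to Lhx2 on chromosome 2 gave smaller differences. In the order of the GRCm38.p6 annotation, the nearest tested genes on one side were Dennd1a, with a log2 difference of 0.21, and Crb2, with 0.13. On the other side were the noncoding gene Gm27197, with -0.13, and Nek6, with 0.24. None of these 4 passed, with limma adjusted p from 0.73 to 0.99.

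Lhx5, a LIM-homeodomain gene known from Cajal-Retzius cells and the early forebrain, read -3.33, -4.27 and -3.91 on arrays labelled cKO 1 to 3 and -4.83, -4.91 and -4.70 on the controls. The groups did not overlap, with array 1 of those labelled cKO highest by a wide margin. The difference was 0.98 (SE 0.23, 95% interval 0.44 to 1.52), or 1.97-fold, with a limma adjusted p of 0.32. The probe was dim, at 31.6 to 90.6 intensity units, and with normexp background correction the difference was 0.46 or 0.42, depending on the scaling.

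Markers of Cajal-Retzius cells, the early-born neurons of the cortical surface, are given beside Lhx5 because these cells express it. Of 8 markers measured, 6 were higher and 2 lower on average on the arrays labelled cKO, with a median log2 difference of 0.25; 0 passed, and only Trp73 (0.21) had groups that did not overlap (6.98% of all tested genes were higher in this way). Reln, a secreted protein made by these cells, had a log2 difference of 0.30 (limma adjusted p 0.67). The 2 lower markers were Calb2, with -0.67, and Ndnf, with -0.15 (limma adjusted p 0.89 and 0.96). The summed level of the 8 genes, in multiples of the array's 75th percentile, was 2.42 to 2.89 on arrays labelled cKO and 2.18 to 2.40 on controls. Such a sum follows mainly the brightest genes of a list, here Trp73 (mean log2 level 0.37 against 0.15). The part of the 8 genes in the Lhx5 difference was not tested. In whole tissue, a change in the number of cells of a type and a change in RNA per cell cannot be told apart.

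Lhx9, the closest relative of Lhx2, did not move in 1 direction over its 3 probes. Its brightest probe read -2.34, -2.98 and -2.91 on arrays labelled cKO and -2.42, -2.83 and -2.70 on controls. The groups overlapped, and the difference was -0.09 (95% interval -0.56 to 0.37, limma adjusted p 0.99). The probe 5.6 kb away read -5.08, -4.91 and -4.90 against -5.84, -5.39 and -5.04. The one 7.4 kb away read -4.49, -4.95 and -4.43 against -4.88, -4.49 and -5.17. Both overlapped between groups, and they differed by 0.46 and 0.23 (limma adjusted p over 50030 probes 0.75 and 0.99). The 0.46 was 0.25 without control 1, 0.65 without control 3 and 0.15 with normexp and quantile scaling. The 0.23 was 0.41 without control 2, 0.39 without array 2 of those labelled cKO, 0.13 without array 3 of them and 0.07 without control 3. These 2 probes are among the dimmest described here, at 16.8 to 44.2 intensity units.

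**Figure D2:**
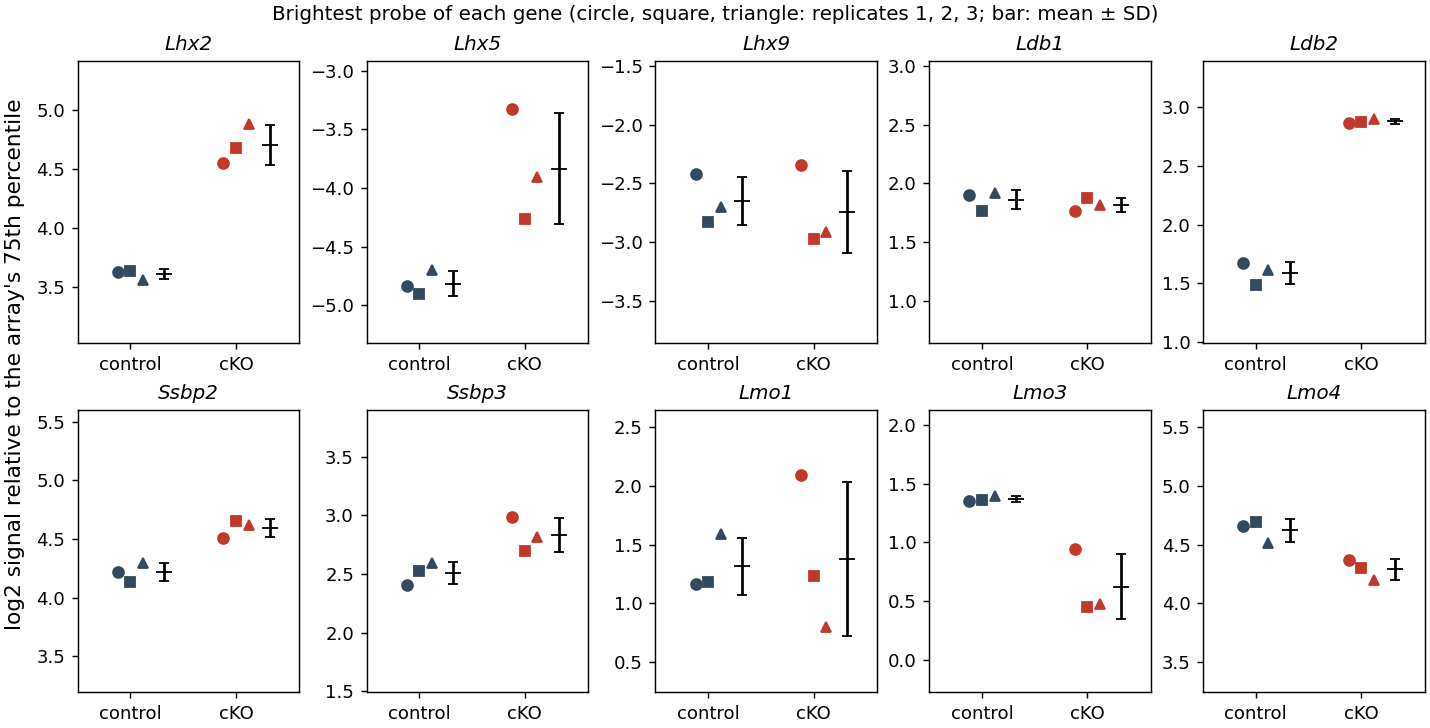
Log2 signal of each gene's brightest probe relative to the array's 75th percentile, for 3 control arrays (dark) and 3 arrays labelled cKO (red), with the replicate as the symbol and the mean ± SD at the right of each group; every panel spans 2.4 log2 units but has its own centre. The groups are apart for Lhx2, Lhx5, Ldb2, Ssbp2 and Ssbp3 (higher) and for Lmo3 and Lmo4 (lower), and overlap for Lhx9, Ldb1 and Lmo1.

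The 2 Ldb genes, whose products bind LIM domains, gave different values. Ldb2 read 2.86, 2.87 and 2.90 on arrays labelled cKO 1, 2 and 3 and 1.67, 1.48 and 1.61 on controls 1, 2 and 3. All arrays labelled cKO were above all controls, with the arrays labelled cKO within a few hundredths of each other (2.88 ± 0.02 against 1.59 ± 0.10, SD, n = 3 each). Ldb2 rose by 1.29 (SE 0.09, 95% interval 1.08 to 1.51), or 2.45-fold, with a limma adjusted p of 0.042, the 2nd smallest p of all tested genes. Only 57 of the tested genes had a larger absolute difference.

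The call for Ldb2 was a narrow one. When probes were tested in place of genes, 1 probe of 50030 was called (0.002%) and none of the 16 was, with Ldb2 at a limma adjusted p of 0.077. The difference itself was 1.24 to 1.33 when any 1 array was left out, but each of these 6 fits lost the call (limma adjusted p 0.081 to 0.19). The call was also lost with no filter on dim probes (0.081), the slide row as a term (0.051) and a term for Y-linked signal (difference 1.39, 0.19). With the replicate number as a block it was lost as well (limma adjusted p 0.22).

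Ldb1, the more widely expressed of the Ldb genes, read 1.76, 1.88 and 1.82 on arrays labelled cKO and 1.90, 1.77 and 1.92 on controls. The groups overlapped. The difference was -0.04 (95% interval -0.26 to 0.17, limma adjusted p 0.99), so a fall beyond 0.26 lies outside the interval. The log2 ratio of Ldb2 to Ldb1 within each array, relative to the control mean, was 1.38, 1.27 and 1.36 on arrays labelled cKO and 0.05, -0.01 and -0.04 on controls. The mean difference of this ratio was 1.34 and the exact two-sided permutation p was 0.1, the smallest that 3 arrays against 3 can give. It was 1 of 4 ratios, chosen after the values were seen, and its Benjamini-Hochberg adjusted p was 0.13.

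Ldb2 is also used as a marker of deep-layer projection neurons, and the deep-layer list was measured beside it. Of 9 markers of layers 5 and 6, 7 were higher on average on the arrays labelled cKO, 6 of them without overlap (6.98% of all tested genes), and 0 passed. The median log2 difference was 0.29. Their summed level was 73.6 to 83.3 times the 75th percentile on arrays labelled cKO and 51.1 to 56.1 on controls. Rprm, a cell-cycle gene marking layer 6, was the brightest gene in this sum (mean log2 level 4.79 against 3.96). It had the smallest p of the 9 markers, with a difference of 0.83 (limma adjusted p 0.097). Sulf2, a sulfatase, differed by 0.59 and Crym, a thyroid-hormone-binding protein, by 0.89 (limma adjusted p 0.20 and 0.33). Fezf2, a factor that specifies deep-layer neurons, had a difference of 0.45 (limma adjusted p 0.39). The 8 layer 4 markers were all lower on average, 6 without overlap (6.19% of all tested genes), with a median of -0.56 and 0 called. The part of these lists in the Ldb2 value was not tested.

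The Ssbp cofactors gave smaller differences in the same direction as Ldb2. The brightest Ssbp2 probe, on chromosome 13, read 4.51, 4.66 and 4.62 on arrays labelled cKO and 4.22, 4.14 and 4.30 on controls. No array crossed over, and the difference was 0.37 (SE 0.09, 95% interval 0.15 to 0.60), or 1.30-fold, with a limma adjusted p of 0.33. Its near-identical partner listed on chromosome 4 read 3.71, 3.93 and 3.93 against 3.39, 3.23 and 3.42, a difference of 0.51 (limma adjusted p over probes 0.36).

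The remaining Ssbp2 probe, 1.1 kb from the brightest one, does not share its sequence. It read 0.19, 0.50 and 0.61 on arrays labelled cKO and -0.13, -0.03 and 0.08 on controls. Here also no array crossed over, and the difference was 0.46 (limma adjusted p over probes 0.51). All 3 Ssbp2 probes were therefore higher on every array labelled cKO, and none passed.

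The nearest tested gene on one side of Ssbp2 was the noncoding A830009L08Rik, with a difference of -0.99 (limma adjusted p 0.099), opposite in sign, and the next was Atg10, with 0.02. On the other side, 4833422C13Rik differed by 0.13 and Acot12 by -0.42 (limma adjusted p 0.92 and 0.32). Beside Ldb2 on chromosome 5, Tapt1 differed by 0.18 and Prom1 by -0.33 on one side, and the noncoding 4930431F12Rik by 0.43 and D5Ertd615e by 0.11 on the other. The nearest tested genes of the other members were computed in the same way, and none of them passed either (limma).

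Ssbp3 read 2.99, 2.70 and 2.81 on arrays labelled cKO and 2.40, 2.53 and 2.59 on controls. The lowest array labelled cKO was just above the highest control. The difference was 0.33 (SE 0.11, 95% interval 0.06 to 0.59), or 1.25-fold, with a limma adjusted p of 0.52. The log2 ratio of Ssbp2 to Ssbp3 within an array differed by 0.05 between groups, with overlap (exact two-sided permutation p 0.8).

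**Figure D3:**
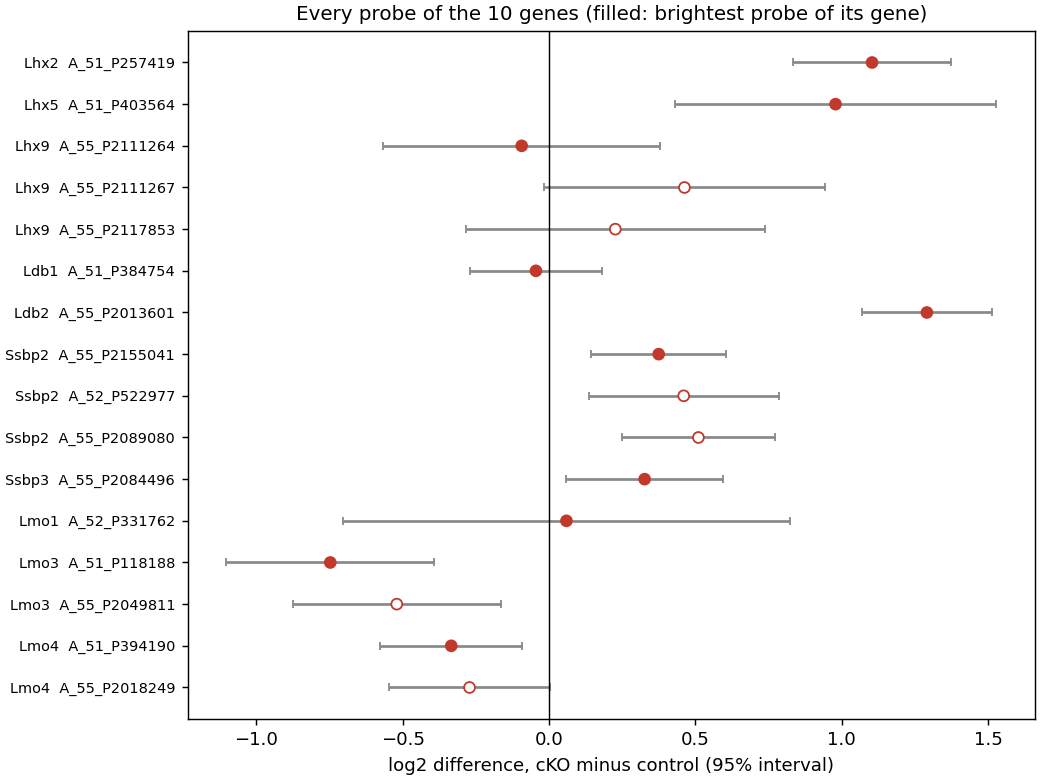
Log2 difference (arrays labelled cKO minus control) of each of the 16 probes, with its 95% interval from the fit over 50030 probes; filled points are the brightest probe of a gene. The 3 Ssbp2 probes lie between 0.37 and 0.51, the 2 Lmo3 probes at -0.75 and -0.52, and the 3 Lhx9 probes on both sides of 0.

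Among the LIM-only genes, Lmo3 and Lmo4 were lower on the arrays labelled cKO and Lmo1 varied between arrays of a group. Lmo3, a LIM-only gene expressed in cortical neurons, read 0.94, 0.45 and 0.47 on arrays labelled cKO and 1.35, 1.36 and 1.40 on controls. The groups did not overlap, and the controls were nearly equal while array 1 of those labelled cKO lay closest to them. The difference was -0.75 (SE 0.15, 95% interval -1.10 to -0.40), 1.68-fold lower, with a limma adjusted p of 0.23. Of all tested genes, 357 had a larger absolute difference.

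The other Lmo3 probe lies 56.3 kb from the first and was dim, at 42.5 to 79.5 intensity units. It read -3.94, -4.30 and -4.13 on arrays labelled cKO and -3.80, -3.63 and -3.37 on controls. The arrays of each group again lay apart, and the difference was -0.52 (limma adjusted p over probes 0.49). Its sign held under each of the 21 other ways of processing, from -0.62 to -0.25.

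Lmo4, a LIM-only gene with a patterned expression across cortical areas, read 4.37, 4.30 and 4.19 on arrays labelled cKO and 4.66, 4.70 and 4.51 on controls. The arrays labelled cKO were all lower. The difference was -0.33 (SE 0.10, 95% interval -0.57 to -0.10), 1.26-fold lower, with a limma adjusted p of 0.42. A second Lmo4 probe 5.2 kb away read 1.34, 1.10 and 1.19 against 1.53, 1.58 and 1.33, with a difference of -0.27 (limma adjusted p over probes 0.74). Its groups overlapped, since control 3 was just below the highest array labelled cKO.

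Lmo1, a LIM-only gene of the nervous system, read 2.09, 1.23 and 0.80 on arrays labelled cKO and 1.17, 1.18 and 1.59 on controls. The arrays labelled cKO spanned the control values on both sides, and its SD of 0.66 in that group was the widest of the 10 genes. The difference was 0.06 (95% interval -0.70 to 0.82, limma adjusted p 0.999), so neither a rise nor a fall of 1.5-fold was detectable at this spread. Without array 1 of those labelled cKO the difference was -0.30 (limma adjusted p 0.85).

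Within arrays, the log2 ratio of Lmo3 to Lmo4 was lower on every array labelled cKO, by 0.17, 0.60 and 0.47 below the control mean, with a mean difference of -0.41. The ratio of Lhx2 to Lmo4, genes whose products can both bind Ldb proteins, was higher by 1.21, 1.40 and 1.71 over the control mean, with a mean difference of 1.44. Neither set of arrays overlapped its controls, and both exact two-sided permutation p-values were 0.1, the smallest possible (0.13 after Benjamini-Hochberg over the 4 ratios). Lhx2 was higher and Lmo4 lower on every array labelled cKO, so the Lhx2 to Lmo4 ratio had to separate. Both pairs were chosen after the values were seen, and these p-values add no support to the values of the single genes.

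Several marker lists were lower on average on the arrays labelled cKO, as Lmo3 and Lmo4 were. All 12 astrocyte markers were lower on average on arrays labelled cKO, 10 without overlap (6.19% of all tested genes), with a median log2 difference of -0.46. Their summed level was 119 to 143 against 170 to 200 times the 75th percentile. Aldoc was by far the brightest gene in this sum (mean log2 level 6.13 against 6.63). All 12 microglia markers were lower, 7 without overlap, with a median of -0.58. The 12 interneuron markers were lower with a median of -0.26, but only 2 of them without overlap. Of 10 striatum markers, 9 were lower, 5 of them without overlap, with a median of -0.40 and control 3 the highest array. Of 12 oligodendrocyte lineage markers, 10 were lower (6 without overlap) and 2 higher (1 without overlap), with a median of -0.25. The endothelial and mural, choroid plexus and ependymal, and thalamus lists had medians of -0.12, -0.37 and -0.14. Of 8 excitatory projection neuron markers, 5 were higher and 3 lower, with a median of 0.23. The hippocampus list had a median of 0.02. None of the genes in these lists passed. The part of these lists in the Lmo3 and Lmo4 values was not tested.

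The genes most like Lhx2 were ranked by Pearson's r to its probe over the 6 arrays, which fall into the groups of 3, so r mainly reads that division and is given as a description. The highest r belonged to Dact1, an inhibitor of Wnt signalling (r = 0.999), which had a log2 difference of 1.01 (limma adjusted p 0.057). Sh3d19, Isoc1, Cry1 and D11Wsu47e followed, with r from 0.994 to 0.997 and differences of 0.26 to 0.42. The lowest r belonged to Btbd17 (r = -0.998), Ndrg2, Inf2, Serhl and Zfp703, with differences from -0.70 to -0.34. Among the 10 genes, r to Lhx2 was 0.98 for Ldb2, 0.95 for Ssbp2, -0.96 for Lmo3 and -0.93 for Lmo4, followed by 0.81 for Lhx5 and 0.80 for Ssbp3. It was -0.35 for Ldb1, -0.30 for Lhx9 and -0.10 for Lmo1.

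The wider family was read from 5 related lists with 75 tested genes. Of these, 0 passed and 15 had an unadjusted p under 0.05, which 7.49% of all tested genes had. The groups did not overlap for 4 higher and 13 lower genes, or 22.7%, against 6.98% higher and 6.19% lower (13.2%) over all tested genes, and the median log2 difference was -0.04.

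Of 9 other LIM-homeodomain genes listed, 7 were tested (Isl2 and Lmx1a were not), with a median of -0.10. Lhx4 (0.08) was the only one whose groups did not overlap (6.98% of all tested genes were higher in this way). Lhx6, a factor of cortical interneurons, differed by -0.10, and Lhx8, a factor of ventral forebrain neurons, read -3.01 on control 3 and -5.79 to -4.54 on the other 5 arrays. The Lhx8 difference was -0.47 with an SE of 0.65, so a large change in either direction was not detectable. Lhx1, the closest relative of Lhx5, differed by 0.07. All of these had a limma adjusted p of at least 0.97.

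The other nuclear LIM cofactor genes were Lmo2, Rlim, Ssbp1 and Ssbp4. Lmo2, a LIM-only gene of blood and endothelium, read 0.40, 0.41 and 0.44 on arrays labelled cKO and 0.57, 0.63 and 0.78 on controls, a difference of -0.24 (limma adjusted p 0.61). Rlim, a ubiquitin ligase that targets Ldb proteins, differed by -0.07, and Ssbp4 by 0.04. Of 14 subunits of the NuRD chromatin-remodelling complex, 3 were lower without overlap (6.19% of all tested genes), Gatad2a among them (-0.34, limma adjusted p 0.55), and the median was -0.03.

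Among 9 tested bHLH and zinc-finger genes whose products can join LIM complexes, Neurod1, a neuronal differentiation factor, had the smallest p. It read -0.69, -0.91 and -1.03 on arrays labelled cKO and -2.14, -1.85 and -2.11 on controls. The arrays labelled cKO were all higher, and the difference was 1.16 (SE 0.13, limma adjusted p 0.070).

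Of 41 genes for LIM-domain proteins that act mainly outside the nucleus, 2 were higher and 7 lower without overlap (6.98% and 6.19% of all tested genes), and the median was -0.04. Pdlim2, an adaptor at the cytoskeleton, differed by -0.67 (limma adjusted p 0.14) and Lims2, a focal adhesion adaptor, by -0.83 (0.29). Tes and Ablim3, which bind the actin cytoskeleton, differed by 0.53 and 0.42.

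**Figure D4:**
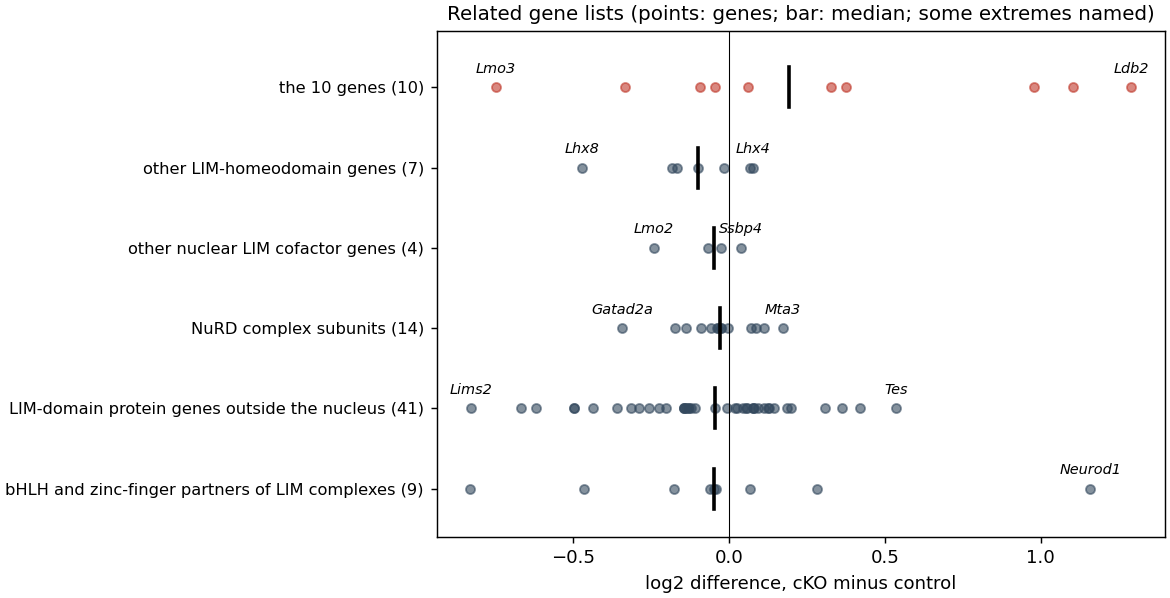
Log2 difference (arrays labelled cKO minus control) of the 10 genes and of the tested genes of 5 related lists, 1 point per gene, with the median as a bar, the highest gene of each list named and the lowest named in all lists but the last. The medians of the 5 lists lie between -0.10 and -0.03, and that of the 10 genes at 0.19.

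Promoter windows from RefSeq (GRCm38.p6, around each gene's start) were matched for 8 of the 10 genes by symbol and searched for homeodomain core motifs on both strands. TAATTA occurred in the windows of 1 of the 8, Lmo1, against 6.12% of all genes with a window. TAATTG occurred in those of 2 of the 8, Ldb1 and Lmo1, against 9.22%. Some genes had more than 1 window. Of the 15 windows of the 8 genes, 2 held TAATTA and 3 TAATTG, against 5.29% and 8.0% of all 32851 windows. The 2 windows with TAATTA overlapped and held the same site. TAATTA reads the same on both strands, and TAATTG shares its first 5 letters. A match describes letters only.

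The differences were recomputed under other ways of processing. Over 22 alternatives the Ldb2 difference lay between 1.24 and 1.40, and the call was made under 11 of them. The Lhx2 difference lay between 1.01 and 1.18, and passed under 5. Lhx5, Ssbp2, Ssbp3, Lmo3 and Lmo4 kept their sign under each of the 22, and Lhx9, Ldb1 and Lmo1, whose intervals include 0, did not. Within slide row 1, which held 1 array of each group, the Ldb2 difference was 1.20 and that of Lhx2 1.06. Within row 2, also with 1 array of each group, they were 1.42 and 1.25. In both rows the array labelled cKO lay in slide column 2 and the control in column 1. Group and slide column therefore cannot be told apart in these pairs.

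**Figure D5:**
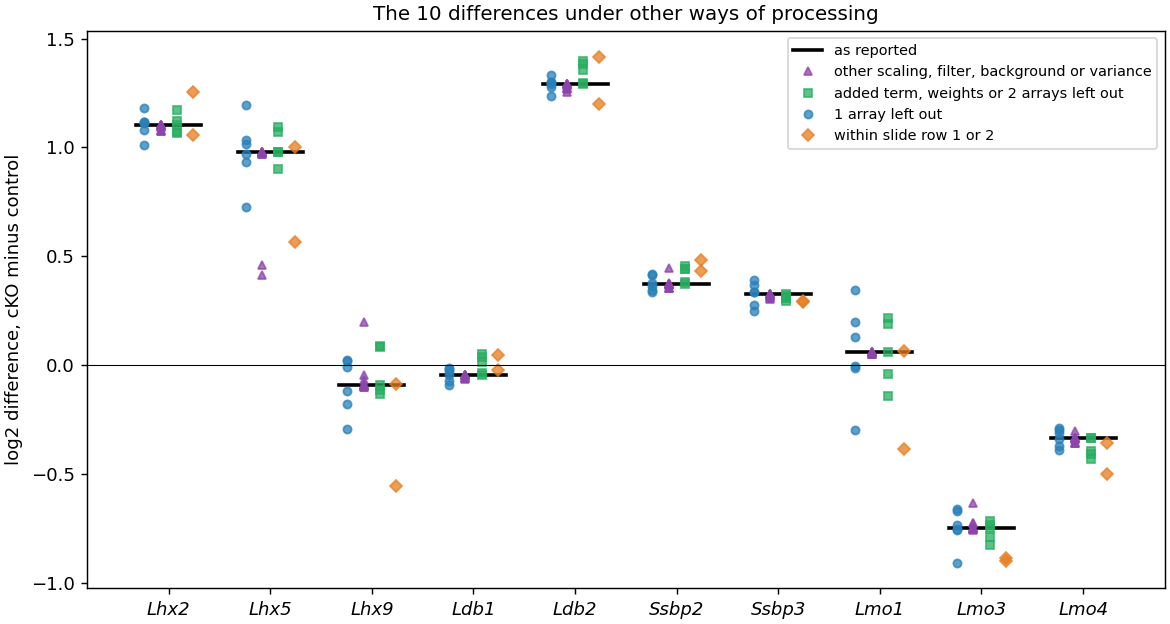
Log2 difference (arrays labelled cKO minus control) of the 10 genes as reported (black bar) and under each other way of processing, coloured by kind. The Ldb2 points stay between 1.20 and 1.42 and the Lhx2 points between 1.01 and 1.25, whereas Lmo1 points lie on both sides of 0 and Lhx5 falls to 0.42 with normexp background correction.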

How the data were processed

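The deposited scanner files hold intensity values of 1-colour (Cy3) Agilent arrays, written by Feature Extraction 10.5.1.1 (protocol GE1_105_Dec08, probe positions on mm9) per the file headers. The processed intensity is background-subtracted by that software and was not normalized between arrays. The authors' deposited matrix holds log2 values; how it was made is not given here, but it matches quantile-normalized log2 intensities minus each probe's median, with 95% of values within 0.00235 and column medians from -0.0064 to 0.00645. Scale and centring are inferred from that match, and the matrix was used as an alternative.

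Spots that were controls or flagged as outliers (112 to 198 on each array) were dropped, spots of a probe were averaged as log2 values, and each array's 75th percentile over probes was subtracted. Taking it over probes rather than over spots was decided after both results were seen, to follow an earlier analysis of these arrays; it calls 3 genes in place of 2, with Ldb2 called either way. A probe was tested if well above background on at least 3 arrays, and a gene took its brightest probe. Groups were compared with limma 3.58.1 in R 4.3.3 (lmFit, eBayes, two-sided, adjusted p under 0.05). The fit code was also run on simulated independent normal values with known changes. These values held no slide position or Y-linked effect, so that run checks only the code.

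The 10 genes and all lists were chosen with earlier results of these data known. Named beside the 10 genes were, by rule, from each list up to 4 genes with the smallest p, not all of which are printed, and the 5 genes with the highest and lowest r to Lhx2; position chose the neighbours, and Lhx1 was named for its relation to Lhx5. Replicate numbers were not used to pair the samples in the reported fit, and no label states if they do. Gene names and promoters came from RefSeq tables on GRCm38.p6; genome sequence on mm9 was not used here. Scaling, background, filter, variance, array-weight and left-out-array alternatives were tried; the comparison without 2 control arrays and the scaling over spots were added after seeing the data.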

Additional observations from a re-analysis of the deposited data

How the results depend on the processing

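As reported, 3 genes, 1 of the 10 and 0 of the 16 probes were called. The counts for genes, for the 10 and for the 16 probes were 12, 1 and 0 with quantile normalization and with the authors' matrix; 24, 1 and 1 with median centring; 89, 2 and 2 with normexp and the 75th percentile; 73, 2 and 2 with normexp and quantile scaling; 13, 2 and 0 with probes well above background on all 6 arrays; 110, 2 and 2 with an intensity trend and robust variances; and 453, 5 and 4 with array weights (Lhx2, Lhx5, Ldb2, Ssbp2 and Lmo3). They were 0, 0 and 0 with no filter on dim probes and with a slide row term, 1, 0 and 0 with a Y-linked term, and 2, 0 and 0 without the 2 control arrays with Y-linked signal, where Ldb2 differed by 1.40 (limma adjusted p 0.26). With the 75th percentile over spots they were 2, 1 and 0. With the replicate block, counts were 0, 0 and 0. Deviations of same-numbered arrays correlated at -0.20, 0.08 and 0.17, within the range of -0.27 to 0.24 among differently numbered arrays. With so few arrays these values cannot show if the numbers pair the samples. Leaving out 1 array gave 0 to 4 genes, 0 to 0 of the 10 and 0 to 0 of the 16. Signs turned for 3 genes near 0. Ldb1 differed by 0.014 with array weights, 0.038 with the Y-linked term and 0.050 without the 2 arrays. Lmo1 differed by -0.14 with array weights, -0.040 with the slide row term, and from -0.30 (without cKO replicate 1) to 0.35 (without cKO replicate 3) with 1 array left out, including -0.015 and -0.0054 without control replicates 1 and 2. Lhx9 differed by 0.089 with the Y-linked term, 0.20 as the mean of its probes, from -0.30 to 0.023 with 1 array left out (0.023 without cKO replicate 2, 0.020 without control replicate 1) and 0.082 without the 2 arrays. Its probe 7.4 kb away differed by -0.090 with the Y-linked term and -0.13 without the 2 arrays. The cause of these changes was not tested. Low signal, though well above background, limits how precise the values of Lhx5, the dimmer Lhx9 probes and the dimmer Lmo3 probe are.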
